A study of Rattus norvegicus with 12 samples.

Results

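Cytochromes P450 of families 1 to 3 were examined across renal cortex arrays from tert-butyl alcohol (TBA)-treated and water-treated rats. Members were all genes whose rat symbol, reached through the RefSeq transcript named for the probe, began with Cyp1, Cyp2 or Cyp3 and a subfamily letter. There were 38 such genes, read by 67 probes, among 15284 symbols with a probe: 3 of family 1, 30 of family 2 and 5 of family 3. Each of 12 male Sprague-Dawley rats, bought at 5 weeks of age, gave 1 one-colour array. The 4 groups of 3 rats were TBA under CO2-O2, TBA under isoflurane, water under CO2-O2 and water under isoflurane; TBA was given at 1000 mg/kg/day and both treatments lasted 4 weeks. All rats were bled under the named gas, CO2-O2 being mixed at 4:1, at 24 h after the last dose. The rats ate a basal diet, and cortex tissue was used without separating its cells, so every level is an average over its cell types. TBA is an industrial solvent and a metabolite of ether fuel additives.

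Cytochromes P450 are haem enzymes that insert oxygen into drugs, solvents, steroids and fatty acids, drawing electrons from the reductase Por in the endoplasmic reticulum. Families 1, 2 and 3 hold most of the enzymes that act on foreign chemicals, and many are switched on by the receptors AhR (family 1), CAR (the 2B subfamily) and PXR (the 3A subfamily). In kidney they lie mainly in the proximal tubule, where arachidonic acid epoxygenases of the 2C and 2J subfamilies make epoxyeicosatrienoic acids, lipids that act on vessels and on sodium transport. Several rat 2C and 3A genes are best known from liver, where growth hormone sets their level by sex.

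Levels are given as log2 of the background-subtracted signal minus the array's 75th percentile, so 0 marks the 75th percentile of that array, and differences between groups are on the same log2 scale. Levels of different genes come from different probes and are not set against each other. The arrays had 61.6% to 71.0% of 61657 probes well above background, and replicates correlated at r = 0.989 to 0.994. Markers of cell types found in cortex were looked up. All 8 markers of the early proximal tubule (S1 and S2 segments), all 6 of the late S3 segment and all 4 of podocytes were measured. No list was specific to medulla, so these markers cannot show whether medulla was included. The adrenal cortex markers Cyp11b1, Cyp11b2 and Star were well above background on 0 of 12 arrays and Mc2r on 1, while Cyp21a1 and Hsd3b1 were measured on all 12. A gene was tested where some group had all 3 of its arrays well above background for that probe. TBA CO2-O2 rat 3 shared slide 1 with the whole water CO2-O2 group, whereas TBA CO2-O2 rats 1 and 2 shared slide 2 with the whole water isoflurane group. The TBA isoflurane group had slide 3 to itself. Slide 1 was scanned on a day of its own and the others together. Isoflurane against CO2-O2 in water rats therefore cannot be told apart from slide and scan day, and neither TBA against water under isoflurane nor isoflurane against CO2-O2 in TBA rats can be told apart from slide.

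In all, 21 of 38 members were tested, 20 of family 2 and Cyp3a2 of family 3. Of these, 14 were well above background on all 12 arrays: Cyp2b2, Cyp2c11, Cyp2c23, Cyp2d1, Cyp2d2, Cyp2d4, Cyp2d5, Cyp2e1, Cyp2f4, Cyp2j3, Cyp2j4, Cyp2r1, Cyp2s1 and Cyp2t1. The other 7 were Cyp2a2, Cyp2b3, Cyp2b15, Cyp2c6v1, Cyp2c7, Cyp2c13 and Cyp3a2. Of those 7, 5 passed only through a water group (Cyp2b15, Cyp2c6v1, Cyp2c7, Cyp2c13 and Cyp3a2), so they could enter the test only where water rats were bright. No member of family 1 was tested. The AhR targets Cyp1a1, Cyp1a2 and Cyp1b1 were well above background on 1, 2 and 4 of 12 arrays. The highest Cyp1a1 level was -5.68 and the lowest -7.81. Cyp2b1, the phenobarbital-induced target of CAR in rat liver, was well above background on 0 of 12 arrays. The same held for Cyp2b12, Cyp2c12, Cyp2c22, Cyp2g1, Cyp3a9, Cyp3a18, Cyp3a23-3a1 and Cyp3a62, which made 9 members in all. Between 1 and 4 arrays were well above background for the other 8, namely the 3 of family 1 with Cyp2a1, Cyp2a3, Cyp2b21, Cyp2d3 and Cyp2j10. Among these, Cyp2a3 reached -3.84 in TBA CO2-O2 rat 1 and was not well above background in the other 11 rats. For these 17 genes no group had all 3 arrays well above background. Every group level of theirs thus rests partly or wholly on spots not well above background, and none was compared between groups. Cyp2u1, which had no matched probe, was not analysed here.

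**Figure D1:**
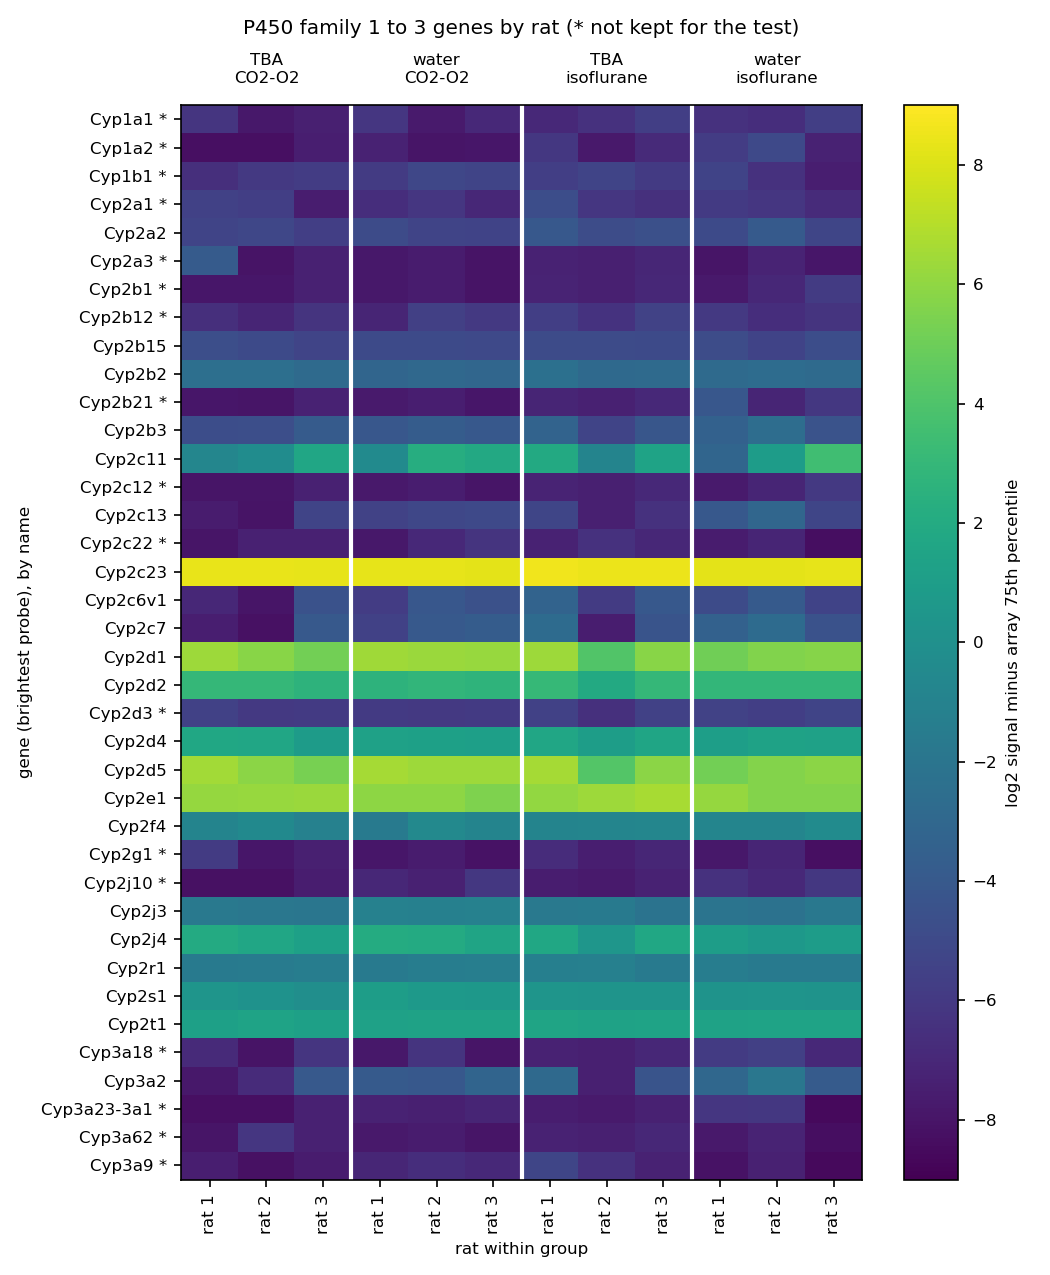
Level of each of the 38 genes (rows, by name) in each of the 12 rats (columns, grouped as TBA CO2-O2, water CO2-O2, TBA isoflurane and water isoflurane), as colour on the log2 scale relative to the array's 75th percentile; an asterisk marks the 17 genes not tested. Among the 21 tested genes, columns of 1 group differ most for Cyp2c11, Cyp2c7, Cyp3a2, Cyp2c6v1 and Cyp2c13, while Cyp2c23 and Cyp2t1 keep nearly 1 colour across all rats.

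Promoters are given for 2 sets of members with the same 3 lowest rats on the probes used, so that the stretch in front of each gene can be compared. Cyp2d5 and Cyp2d1, near-identical drug-metabolising genes that follow each other on chromosome 7, differed between rats in the same way. Cyp2c7, Cyp2c13 and Cyp3a2, rat genes best known from liver, shared their 3 lowest rats on the probes used, though other kept probes of Cyp2c7 did not. These 3 genes passed the signal filter only through water rats. Their spots in the 3 lowest rats, all on TBA, were not well above background, so the shared ranking is no evidence of shared regulation. The 250 bases before each start are from RefSeq on GRCr8, 5′ to 3′ on the gene's own strand, and 35 of 38 members had such an entry. Capitals mark 3 motifs searched on both strands. These were TATAAA, which places the start of many genes, AGGTCA, which many nuclear receptors bind, and CAAAGTCCA, which the liver and kidney factor HNF4 binds. Where the first of these lies on the opposite strand, it reads TTTATA here. Cyp2d5 lies at chr7:115784488-115784737 (minus strand) and Cyp2d1 at chr7:115793431-115793680 (minus strand). Cyp2c7 lies at chr1:247966144-247966393 (plus strand), Cyp2c13 at chr1:248787189-248787438 (minus strand) and Cyp3a2 at chr12:14343858-14344107 (minus strand).
Cyp2d5: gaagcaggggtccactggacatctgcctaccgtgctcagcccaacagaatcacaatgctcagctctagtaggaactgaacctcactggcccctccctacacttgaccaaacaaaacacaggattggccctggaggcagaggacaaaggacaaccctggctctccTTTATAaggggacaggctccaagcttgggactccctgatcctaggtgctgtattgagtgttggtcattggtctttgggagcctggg
Cyp2d1: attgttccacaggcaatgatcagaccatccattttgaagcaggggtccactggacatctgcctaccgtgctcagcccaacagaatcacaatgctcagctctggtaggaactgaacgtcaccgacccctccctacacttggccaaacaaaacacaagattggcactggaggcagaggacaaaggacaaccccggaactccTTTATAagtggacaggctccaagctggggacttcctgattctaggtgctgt
Cyp2c7: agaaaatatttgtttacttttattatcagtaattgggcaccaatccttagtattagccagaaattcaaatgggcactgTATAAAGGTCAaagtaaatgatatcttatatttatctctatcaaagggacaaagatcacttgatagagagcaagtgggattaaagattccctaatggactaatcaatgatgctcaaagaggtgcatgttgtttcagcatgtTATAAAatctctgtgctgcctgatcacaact
Cyp2c13: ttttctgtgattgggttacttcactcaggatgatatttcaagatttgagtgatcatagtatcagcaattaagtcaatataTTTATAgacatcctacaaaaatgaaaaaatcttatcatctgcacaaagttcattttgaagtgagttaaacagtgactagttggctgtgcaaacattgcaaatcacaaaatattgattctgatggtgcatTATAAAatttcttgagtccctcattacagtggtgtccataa
Cyp3a2: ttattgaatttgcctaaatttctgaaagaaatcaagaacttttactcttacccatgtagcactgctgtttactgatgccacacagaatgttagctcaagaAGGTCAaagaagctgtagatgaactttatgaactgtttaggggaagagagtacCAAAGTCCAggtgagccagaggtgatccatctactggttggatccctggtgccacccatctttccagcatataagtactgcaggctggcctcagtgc
The Cyp2d5 and Cyp2d1 stretches were offset by 35 bases, and 201 of the 215 overlapping bases (93.5%) were identical. In Cyp2c7 the AGGTCA overlaps the TATAAA before it by 1 base. TATAAA was present in 13 of the 35 member promoters (37.1%), against 13.1% of all 27457 promoters of this length. AGGTCA was present in 12 (34.3%), against 13.7% of all promoters, and CAAAGTCCA in 2 (5.71%), against 0.331%. GCGTG, the core bound by AhR, was searched as well and stood in 5 of 35 (14.3%), against 27.2% of all promoters. A match describes the letters only.

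TBA was compared with water under each gas with limma, with p-values adjusted over all 29603 features by the Benjamini-Hochberg method and a threshold of 0.05. No member passed in either comparison. Under CO2-O2, 0 of 21 members and 0.149% of all features were called; under isoflurane, 0 of 21 members and 0.395% of all features. At an unadjusted p under 0.05, limma gave 5 members under CO2-O2, against 14.3% of all features, and 3 under isoflurane, against 17.8%. TBA and water rats did not overlap for 4 members under CO2-O2 (Cyp2b2 and Cyp2e1 higher with TBA, Cyp2j3 and Cyp2s1 lower), near the 21.0% seen over all features. Under isoflurane they did not overlap for Cyp2c23 alone, higher with TBA, against 24.0% over all features. The median difference of the 21 members was -0.25 under CO2-O2, where 7 were higher with TBA, and 0.08 under isoflurane, where 13 were higher. Over all features the medians were 0.02 and 0.02. With both gases averaged, 0 of 21 members and 1.88% of all features were called, and 7 members, against 19.0% of all features, had an unadjusted p under 0.05. Cyp2c13 was among the members at that unadjusted threshold under each gas and with both averaged, and Cyp3a2 with both averaged. Both passed the signal filter only through water rats, which favoured a lower TBA level, so these counts and medians show no direction.

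**Figure D2:**
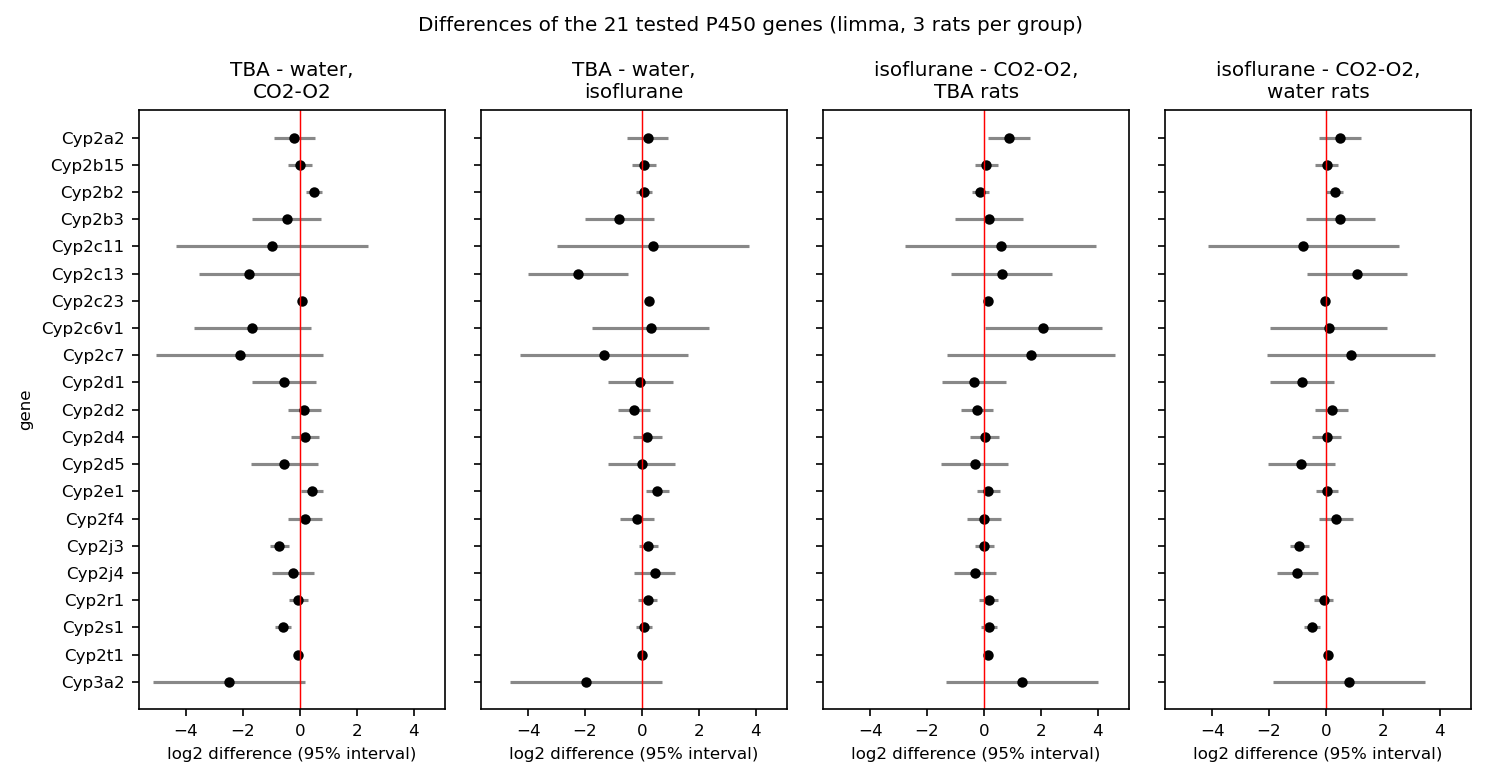
Log2 difference of each of the 21 tested genes (points) with its 95% interval from limma (lines) in 4 comparisons, TBA minus water under each gas and isoflurane minus CO2-O2 under each treatment, with 3 rats per group; the red line is 0. Intervals are narrow for Cyp2c23 and Cyp2t1 and span over 5 log2 units for Cyp2c7, Cyp3a2 and Cyp2c11; no adjusted p was under 0.05.

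Cyp2e1, the ethanol-inducible enzyme that oxidises small solvents and alcohols, had a higher mean with TBA than with water under both gases. Its levels were 6.15, 6.21 and 6.27 in TBA CO2-O2 rats, against 5.92, 5.95 and 5.49 in water CO2-O2 rats. All 3 TBA rats were above all 3 water rats there. Under isoflurane the levels were 6.11, 6.36 and 6.61 in TBA isoflurane rats, against 6.16, 5.63 and 5.67 in water isoflurane rats, with the highest water rat above the lowest TBA rat. The difference was 0.42 ± 0.18 (SE, n = 3 per group, adjusted p = 0.324) under CO2-O2 and 0.54 ± 0.18 (adjusted p = 0.163) under isoflurane. Averaged over the gases it was 0.48 ± 0.13, or 1.40-fold, with an adjusted p of 0.0821 that missed the threshold and a 95% interval of 0.20 to 0.76. On slide 1 alone, with 1 TBA rat, the difference was 0.48.

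Cyp2c23 is the main arachidonic acid epoxygenase of rat kidney. Its levels were 8.39, 8.39 and 8.31 in TBA CO2-O2 rats, against 8.31, 8.31 and 8.28 in water CO2-O2 rats. Under isoflurane they were 8.60, 8.47 and 8.49 in TBA isoflurane rats, against 8.24, 8.27 and 8.31 in water isoflurane rats. The groups met at 8.31 under CO2-O2, whereas under isoflurane every TBA rat was above every water rat, by small amounts. The isoflurane difference was 0.25 ± 0.06, or 1.19-fold (adjusted p = 0.0799), against 0.06 ± 0.06 (adjusted p = 0.67) under CO2-O2. The TBA effect was not shown to differ between the gases (0.19 ± 0.08, adjusted p = 0.402). The CO2-O2 difference on slide 1 alone was 0.01. Over all 12 rats this gene spanned a 1.28-fold range. Markers of the S1 and S2 segments, which lie in the cortex, were set beside it. Under isoflurane 8 of 8 were higher with TBA, with a median of 0.27 and 0 called, against 0.395% of all features. Under CO2-O2 7 of 8 were higher, with a median of 0.23 and 1 called, against 0.149% of all features. Averaged over the gases, 2 of 8 were called, against 1.88% of all features. Their summed signal relative to the 75th percentile ran from 1161 to 1283 in TBA isoflurane rats and from 951 to 1066 in water isoflurane rats. It ran from 1060 to 1179 in TBA CO2-O2 rats and from 934 to 1037 in water CO2-O2 rats. TBA and water rats thus did not overlap in this sum under either gas, as for 21.0% of all single features under CO2-O2 and 24.0% under isoflurane. The sum is weighted to the brightest probes. The part of the S1 and S2 share in the Cyp2c23 level was not tested.

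Cyp2j3 and Cyp2j4, rat epoxygenases of the 2J subfamily that lie next to each other in the annotation, were both lower in isoflurane than in CO2-O2 rats on water. Cyp2j3 had levels of -1.72, -1.87 and -1.90 in TBA CO2-O2 rats, against -1.07, -1.19 and -1.08 in water CO2-O2 rats. In the isoflurane groups it had -1.69, -1.59 and -2.18 in TBA isoflurane rats, against -2.07, -2.24 and -1.82 in water isoflurane rats. The 3 water CO2-O2 rats stood above the other 9 rats. The TBA difference was -0.72 ± 0.15 (1.64-fold lower, adjusted p = 0.111) under CO2-O2 and 0.22 ± 0.15 (adjusted p = 0.483) under isoflurane, and these 2 effects differed by 0.94 ± 0.22 (adjusted p = 0.238). On slide 1 alone, where 1 TBA rat met the 3 water rats, the CO2-O2 difference was -0.79. All 4 kept probes of Cyp2j3 gave a negative difference under CO2-O2, of -0.72 to -0.41. The dimmest of them passed the signal filter only through water CO2-O2 rats, which favoured a lower level in the other groups. Isoflurane minus CO2-O2 in water rats was -0.93 ± 0.15 (1.90-fold lower), with the lowest adjusted p of any member, 0.0595. The dimmest probe, favoured by the filter, gave -1.19 there, and the other kept probes lay between -0.93 and -0.75.

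Cyp2j4 had levels of 1.97, 1.63 and 1.25 in TBA CO2-O2 rats, against 2.08, 2.00 and 1.50 in water CO2-O2 rats. Under isoflurane they were 1.71, 0.48 and 1.71 in TBA isoflurane rats, against 0.99, 0.62 and 0.95 in water isoflurane rats. Water isoflurane rats were all below water CO2-O2 rats, by 1.01 ± 0.33 on the log2 scale (2.01-fold lower, adjusted p = 0.16), while TBA and water rats overlapped under each gas. The 3 probes of Cyp2j4 were at -1.04 to -0.95 in that anesthetic comparison. The TBA difference was -0.25 ± 0.33 under CO2-O2 (adjusted p = 0.774) and 0.45 ± 0.33 under isoflurane (adjusted p = 0.516). The CO2-O2 difference of Cyp2j4 on slide 1 alone was -0.61.

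**Figure D3:**
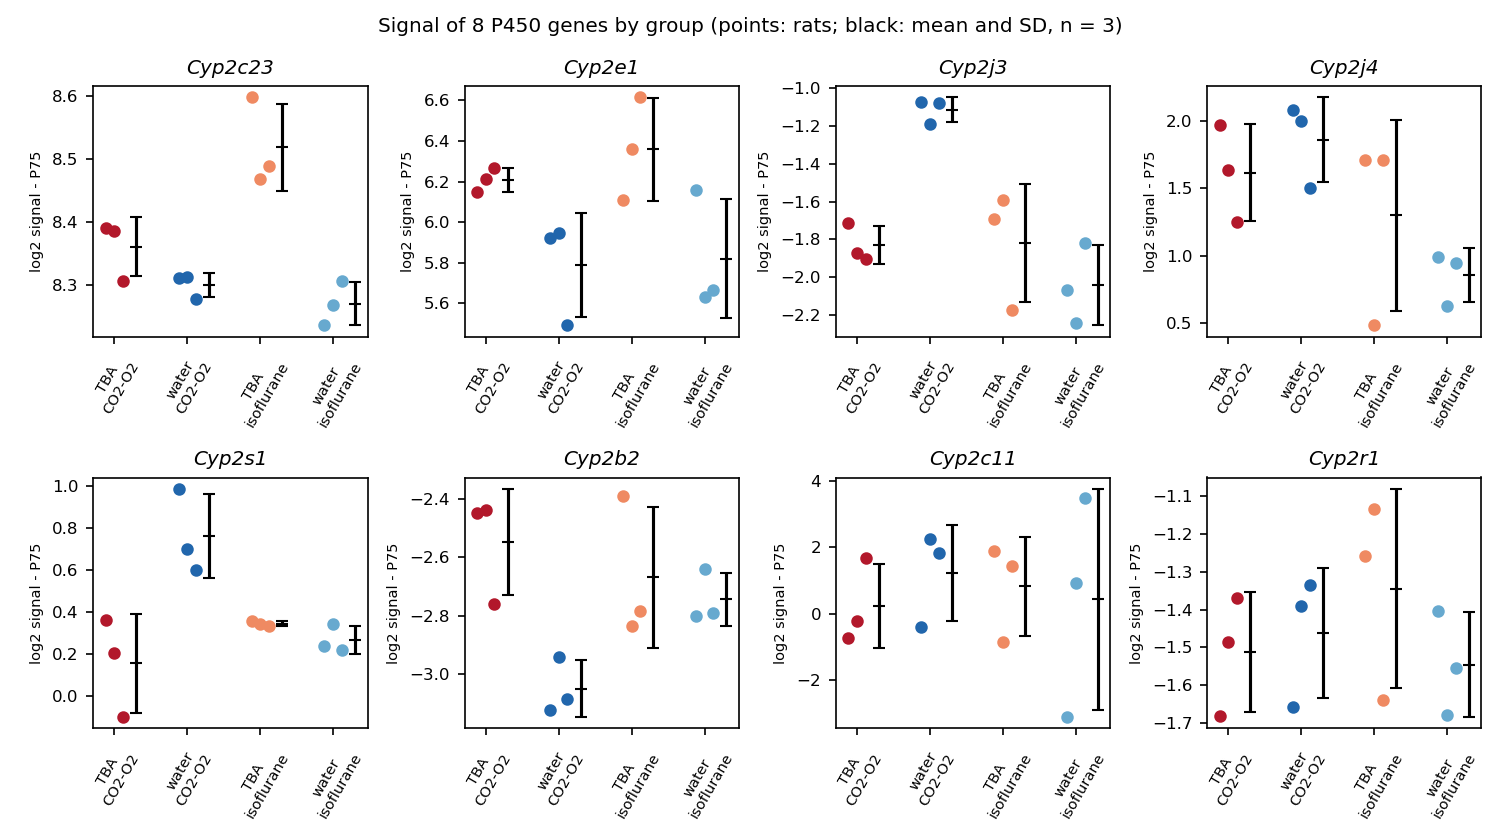
Level of 8 genes in each rat (points, log2 signal minus the array's 75th percentile) for TBA CO2-O2, water CO2-O2, TBA isoflurane and water isoflurane, with the mean and SD in black (n = 3); each panel has its own axis. For Cyp2j3 the 3 water CO2-O2 rats stand above the other 9, and Cyp2c11 spreads from -3.11 to 3.48 among the water isoflurane rats alone.

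Cyp2s1, an extrahepatic enzyme with AhR-dependent induction in other tissues, had levels of 0.36, 0.21 and -0.10 in TBA CO2-O2 rats, against 0.99, 0.70 and 0.60 in water CO2-O2 rats. Under isoflurane they were 0.36, 0.35 and 0.33 in TBA isoflurane rats, against 0.24, 0.34 and 0.22 in water isoflurane rats. TBA rats were lower under CO2-O2 with no overlap, by 0.60 ± 0.12 on the log2 scale (adjusted p = 0.101), and isoflurane rats on water were lower than CO2-O2 rats on water by 0.49 ± 0.12 (adjusted p = 0.109). Its probes disagreed: 2 of 4 were negative in the TBA CO2-O2 comparison and the 4 spanned -0.60 to 0.09. Cyp2b2, the rat enzyme that phenobarbital induces in liver through CAR, had levels of -2.45, -2.44 and -2.76 in TBA CO2-O2 rats, against -3.12, -2.94 and -3.09 in water CO2-O2 rats. It had -2.39, -2.83 and -2.78 in TBA isoflurane rats, against -2.80, -2.64 and -2.79 in water isoflurane rats. Every TBA rat was above every water rat under CO2-O2 (0.50 ± 0.13, 1.42-fold, adjusted p = 0.161), and the groups overlapped under isoflurane (0.08 ± 0.13, adjusted p = 0.812). On slide 1 alone the CO2-O2 difference of Cyp2b2 was 0.29. Of the 5 probes of Cyp2b2, only the probe used passed the signal filter. The other probes were well above background on 1 to 3 of 12 arrays, and their TBA differences under CO2-O2 ran from -0.44 to 0.68.

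Cyp2r1, the vitamin D 25-hydroxylase, had levels of -1.68, -1.49 and -1.37 in TBA CO2-O2 rats, against -1.66, -1.39 and -1.33 in water CO2-O2 rats. Under isoflurane it had -1.26, -1.13 and -1.64 in TBA isoflurane rats, against -1.40, -1.68 and -1.55 in water isoflurane rats. The groups overlapped under both gases, with TBA differences of -0.05 ± 0.15 (adjusted p = 0.904, 95% interval -0.38 to 0.27) and 0.20 ± 0.15 (adjusted p = 0.512, 95% interval -0.12 to 0.53). Cyp2r1 differed on slide 1 alone by 0.09 under CO2-O2, opposite in sign. Cyp2t1 stayed within a 1.21-fold range over all 12 rats. Its levels were 1.25, 1.43 and 1.21 in TBA CO2-O2 rats, against 1.32, 1.36 and 1.38 in water CO2-O2 rats, and 1.49, 1.40 and 1.43 in TBA isoflurane rats, against 1.40, 1.44 and 1.43 in water isoflurane rats. The TBA difference of Cyp2t1 was -0.06 ± 0.07 (95% interval -0.20 to 0.09) under CO2-O2 and 0.02 ± 0.07 (95% interval -0.13 to 0.16) under isoflurane, and on slide 1 alone it was -0.14 under CO2-O2. Cyp2f4, which activates naphthalene in rodent lung, had levels of -0.89, -0.49 and -1.08 in TBA CO2-O2 rats, against -1.62, -0.52 and -0.88 in water CO2-O2 rats, and -0.90, -0.83 and -0.73 in TBA isoflurane rats, against -0.82, -0.84 and -0.29 in water isoflurane rats. Its groups overlapped under both gases.

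Cyp2d5 and Cyp2d1, whose promoters are printed above, are near copies whose probes may share signal, so neither is certain on its own. Cyp2d5 had levels of 6.51, 5.87 and 5.28 in TBA CO2-O2 rats, against 6.55, 6.38 and 6.38 in water CO2-O2 rats. Under isoflurane it had 6.60, 4.19 and 5.90 in TBA isoflurane rats, against 5.19, 5.66 and 5.86 in water isoflurane rats. Cyp2d1 had 6.36, 5.80 and 5.13 in TBA CO2-O2 rats, against 6.41, 6.27 and 6.25 in water CO2-O2 rats, and 6.36, 4.11 and 5.79 in TBA isoflurane rats, against 5.08, 5.56 and 5.76 in water isoflurane rats. Both were lowest in TBA isoflurane rat 2, then in water isoflurane rat 1 and TBA CO2-O2 rat 3. The TBA differences of Cyp2d5 were -0.55 ± 0.53 (adjusted p = 0.678) under CO2-O2 and -0.01 ± 0.53 (adjusted p = 0.997) under isoflurane. On slide 1 alone, where TBA CO2-O2 rat 3 met the 3 water rats, the CO2-O2 difference was -1.16 for Cyp2d5 and -1.17 for Cyp2d1. Water isoflurane rats were all below water CO2-O2 rats for both genes, by 0.87 ± 0.53 for Cyp2d5 (adjusted p = 0.404) and 0.84 ± 0.51 for Cyp2d1 (adjusted p = 0.401).

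The S3 segment of the proximal tubule lies deep in the cortex and in the outer medulla, and 4 of its 6 markers (Slc7a13, Slc22a7, Slc3a1 and Ggt1) were also lowest in TBA isoflurane rat 2. The other 2 were not: Acy3 was lowest in water isoflurane rat 3 (7.54) and Slc5a1 in water isoflurane rat 2 (-2.69). Slc7a13, an amino acid transporter, had levels of 7.50, 6.59 and 6.25 in TBA CO2-O2 rats, against 7.74, 7.35 and 7.55 in water CO2-O2 rats. It had 7.48, 5.43 and 6.66 in TBA isoflurane rats, against 5.78, 6.28 and 6.68 in water isoflurane rats. Summed over the 6 measured S3 markers, the signal relative to the 75th percentile ran from 638 to 972 in TBA CO2-O2 rats and from 843 to 949 in water CO2-O2 rats. It ran from 537 to 979 in TBA isoflurane rats and from 568 to 649 in water isoflurane rats. The sum is weighted to the brightest probes, so Slc22a7 and Slc5a1 add little to it. The 2 groups on water did not overlap in this sum, as for Cyp2d5, Cyp2d1 and Cyp2j4 and for 29.2% of all features. All 6 S3 markers were lower in isoflurane than in CO2-O2 rats on water, with 0 of 6 called and a median of -0.62. The part of the S3 share in these P450 levels was not tested, and in bulk cortex fewer cells of a type cannot be told apart from less RNA per cell.

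**Figure D4:**
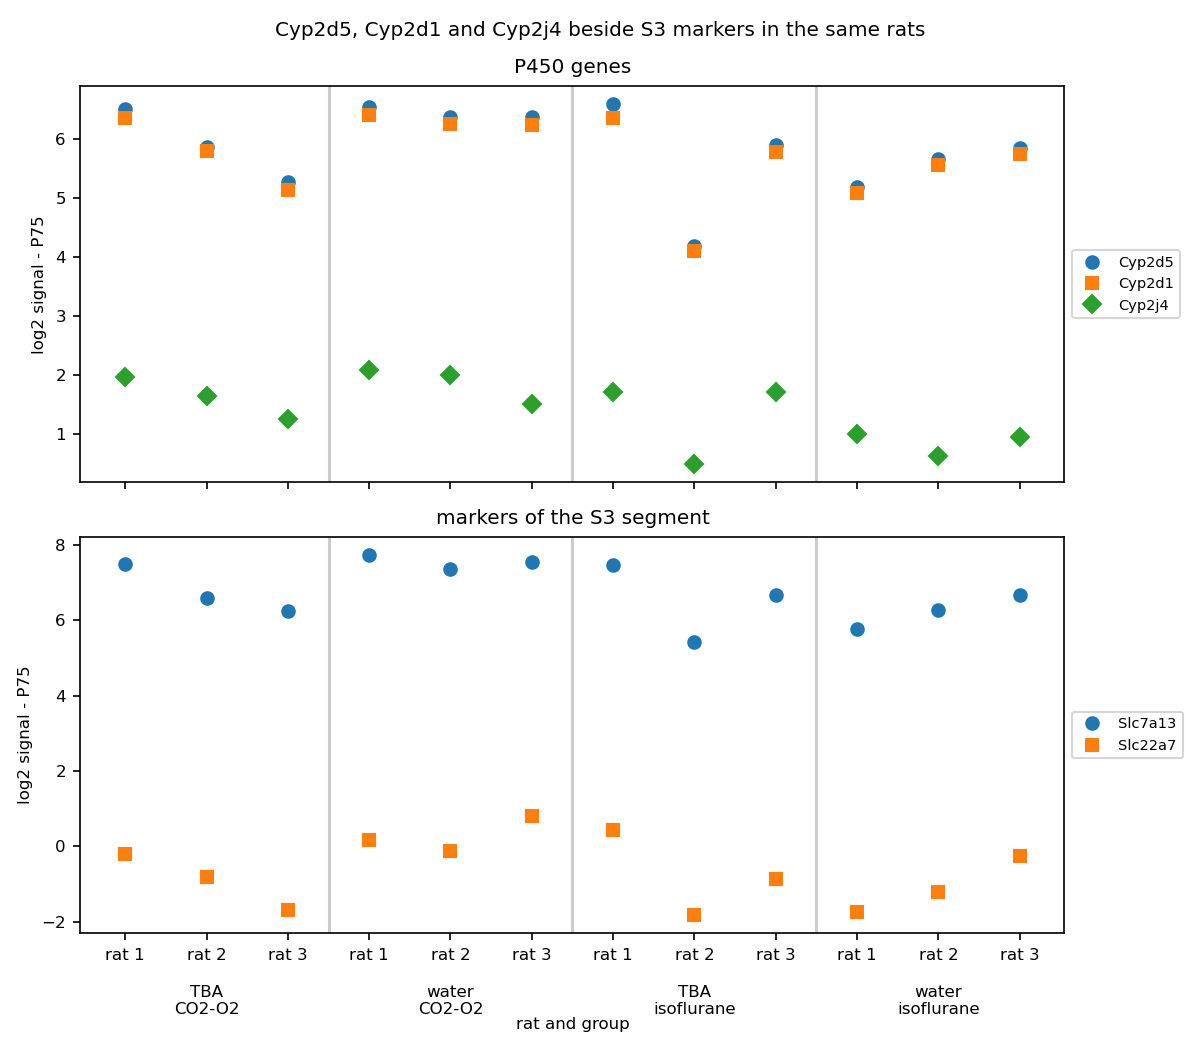
Levels of Cyp2d5, Cyp2d1 and Cyp2j4 (upper panel) and of the S3 markers Slc7a13 and Slc22a7 (lower panel) in each rat, as log2 signal minus the array's 75th percentile, for TBA CO2-O2, water CO2-O2, TBA isoflurane and water isoflurane. TBA isoflurane rat 2 is lowest in the 5 genes shown; the S3 markers Acy3 and Slc5a1, not shown, were lowest in water isoflurane rats.

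The other 2D genes varied less. Cyp2d2, the rat debrisoquine hydroxylase, had levels of 3.01, 3.00 and 2.67 in TBA CO2-O2 rats, against 2.64, 2.82 and 2.73 in water CO2-O2 rats, and 3.09, 1.92 and 2.97 in TBA isoflurane rats, against 2.92, 2.92 and 2.95 in water isoflurane rats. TBA isoflurane rat 2 was again lowest, and TBA differed from water by 0.16 ± 0.25 (adjusted p = 0.812) and -0.27 ± 0.25 (adjusted p = 0.622). Cyp2d4, known from rat brain, had levels of 1.71, 1.63 and 0.89 in TBA CO2-O2 rats, against 1.31, 1.22 and 1.15 in water CO2-O2 rats, and 1.68, 1.04 and 1.58 in TBA isoflurane rats, against 1.07, 1.39 and 1.27 in water isoflurane rats. Its TBA differences were 0.18 ± 0.22 (adjusted p = 0.753) and 0.19 ± 0.22 (adjusted p = 0.711). On slide 1 alone the CO2-O2 differences were -0.07 for Cyp2d2 and -0.34 for Cyp2d4, both opposite in sign.

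Cyp2c7, Cyp2c6v1, Cyp2c13 and Cyp3a2, rat enzymes of steroid and drug hydroxylation best known from liver, passed the signal filter only through water rats. A lower TBA level was thus favoured by the filter, and the differences of these 4 genes are descriptions that show no direction. For each of Cyp3a2, Cyp2c7 and Cyp2c6v1, the arrays well above background were 1 of 3 for TBA CO2-O2 rats and 2 of 3 for TBA isoflurane rats, against 3 of 3 for each water group, so that their TBA means rest partly on spots not well above background. Cyp3a2, a testosterone 6-beta-hydroxylase of male liver, had levels of -7.86, -6.77 and -3.99 in TBA CO2-O2 rats, against -3.94, -4.02 and -3.20 in water CO2-O2 rats. It had -2.83, -7.41 and -4.34 in TBA isoflurane rats, against -3.01, -1.87 and -3.85 in water isoflurane rats. TBA CO2-O2 rats 1 and 2 and TBA isoflurane rat 2 were far below the other 9 rats, which included the other 3 TBA rats. The measured means differed by -2.49 under CO2-O2 and by -1.95 under isoflurane. On slide 1, which holds TBA CO2-O2 rat 3 alone, the CO2-O2 difference was -0.27.

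Cyp2c7, a retinoid and steroid hydroxylase more abundant in female rat liver, had levels of -7.50, -8.17 and -3.94 in TBA CO2-O2 rats, against -5.54, -3.94 and -3.76 in water CO2-O2 rats. It had -2.73, -7.54 and -4.35 in TBA isoflurane rats, against -3.39, -2.72 and -4.50 in water isoflurane rats. The same 3 TBA rats were lowest on the probe used. On its other kept probes, water CO2-O2 rat 1 (-6.82 and -7.69) was among the 3 lowest. The measured means differed by -2.12 under CO2-O2 and by -1.34 under isoflurane, and on slide 1 alone the CO2-O2 difference was 0.48, opposite in sign. Cyp2c6v1 had levels of -6.99, -7.95 and -4.50 in TBA CO2-O2 rats, against -5.80, -4.11 and -4.53 in water CO2-O2 rats, and -3.28, -5.89 and -4.04 in TBA isoflurane rats, against -4.86, -3.91 and -5.35 in water isoflurane rats. Its measured means differed by -1.67 under CO2-O2 and by 0.30 under isoflurane, and on slide 1 alone the CO2-O2 difference was 0.31. On the other kept probe of Cyp2c6v1, water CO2-O2 rat 1 (-6.32) was among the 3 lowest.

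Cyp2c13, a male-specific steroid hydroxylase of rat liver, was well above background in 0 of 6 TBA rats. It had measured levels of -7.62, -8.04 and -5.29 in TBA CO2-O2 rats, against -5.48, -5.13 and -5.02 in water CO2-O2 rats. It had -5.22, -7.41 and -6.46 in TBA isoflurane rats, against -4.03, -3.07 and -5.23 in water isoflurane rats. It was well above background in 2 of 3 water CO2-O2 rats and 3 of 3 water isoflurane rats. Taken as a bound against the dimmest well-measured signal, the Cyp2c13 mean was 1.44-fold lower with TBA under CO2-O2 and 2.17-fold lower under isoflurane. The 1.44 is no strict minimum, since not all water CO2-O2 spots were well above background. On the measured levels limma gave an adjusted p of 0.349 under CO2-O2 and 0.183 under isoflurane. Since Cyp2c13 entered the test only through the water isoflurane rats, these bounds describe the signal and show no effect of TBA. The groups overlapped under both gases, and on slide 1 alone the CO2-O2 difference was -0.08. Cyp2b3, a constitutive 2B gene of rat liver, had levels of -4.77, -4.71 and -3.83 in TBA CO2-O2 rats, against -4.13, -3.75 and -4.05 in water CO2-O2 rats, and -3.25, -5.31 and -4.22 in TBA isoflurane rats, against -3.43, -2.60 and -4.36 in water isoflurane rats. On the probe used, its 3 lowest rats were again TBA CO2-O2 rats 1 and 2 and TBA isoflurane rat 2. On its other kept probe they were TBA CO2-O2 rats 1 and 3 and TBA isoflurane rat 3. Its TBA difference under isoflurane was -0.80 ± 0.54 (adjusted p = 0.481).

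Hepatocyte markers were set beside these genes. Albumin (Alb) had levels of -1.41, -2.34 and 0.63 in TBA CO2-O2 rats, against 0.49, 1.18 and 1.34 in water CO2-O2 rats. It had 1.57, -1.84 and 0.46 in TBA isoflurane rats, against 1.67, 2.52 and 0.50 in water isoflurane rats. The 3 lowest rats of Alb, Ttr and Serpina1 were the same 3 TBA rats as for the probes used of Cyp2c7, Cyp2c6v1, Cyp2c13, Cyp2b3 and Cyp3a2. Other kept probes of Cyp2c7, Cyp2c6v1 and Cyp2b3 put a different rat among the 3 lowest. Apoa1, Apoh, Fga and Fgb shared that set of 3 only in part or not at all. For Apoa1 the 3 lowest were TBA CO2-O2 rats 2 and 1 and water CO2-O2 rat 1. For Fgb they were water CO2-O2 rat 1, TBA isoflurane rat 2 and TBA CO2-O2 rat 1. For Apoh they were TBA isoflurane rat 2, TBA CO2-O2 rat 3 and water isoflurane rat 1. For Fga they were water isoflurane rats 2 and 3 and TBA CO2-O2 rat 3. Tat, an enzyme of hepatocytes, was well above background on 0 of 12 arrays. Of 8 hepatocyte markers 7 were tested and 0 called, with median TBA differences of -1.18 under CO2-O2 and -0.76 under isoflurane. Their summed signal relative to the 75th percentile ran from 4.06 to 5.57 in TBA CO2-O2 rats and from 5.56 to 8.58 in water CO2-O2 rats. It ran from 3.22 to 9.76 in TBA isoflurane rats and from 5.47 to 13.7 in water isoflurane rats. This sum too is weighted to the brightest probes. The part of hepatocyte RNA in these P450 levels was not tested.

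**Figure D5:**
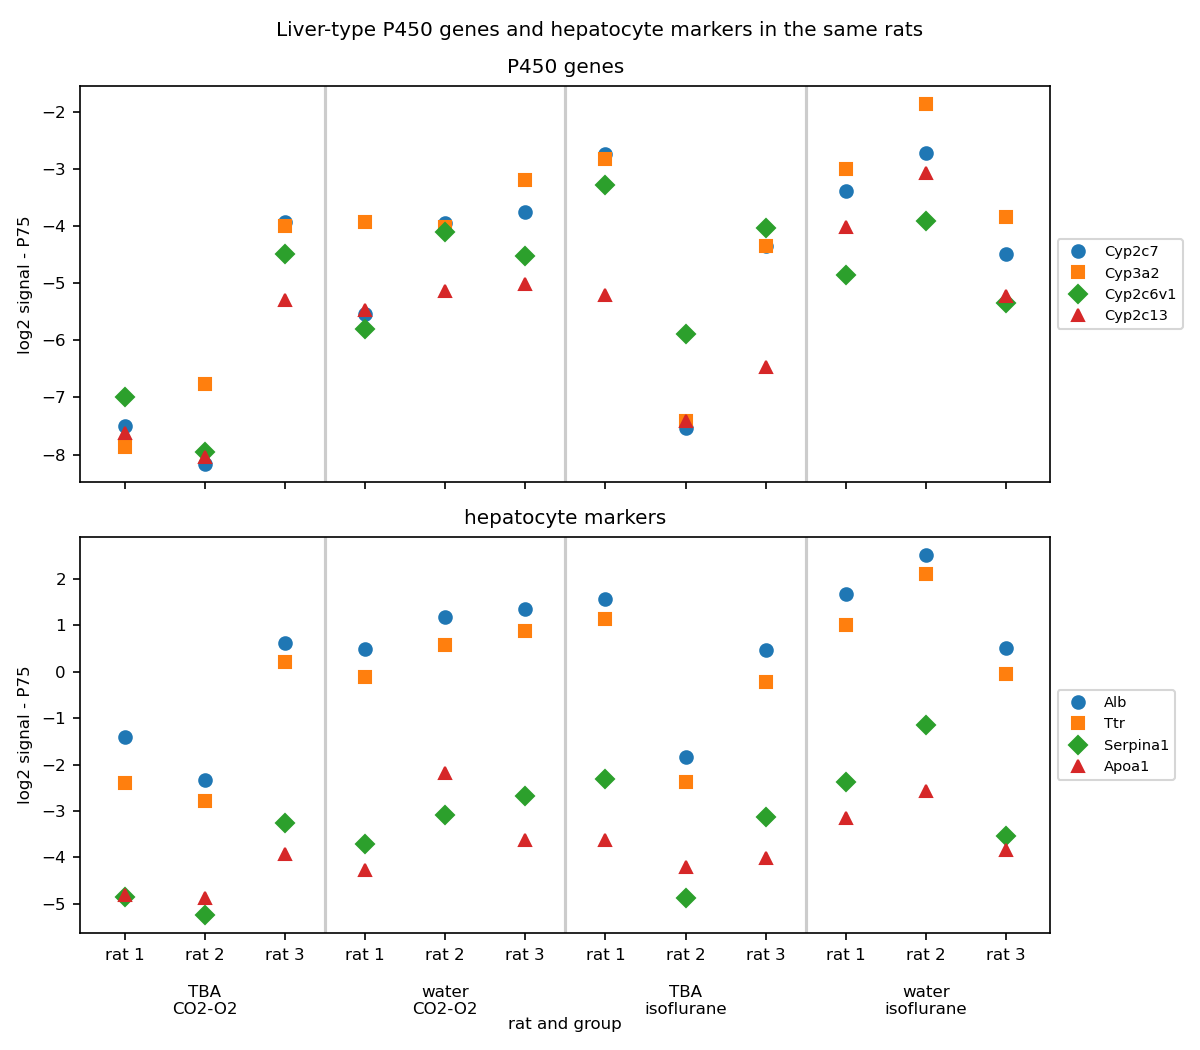
Levels of Cyp2c7, Cyp3a2, Cyp2c6v1 and Cyp2c13 (upper panel) and of the hepatocyte markers Alb, Ttr, Serpina1 and Apoa1 (lower panel) in each rat, as log2 signal minus the array's 75th percentile, for TBA CO2-O2, water CO2-O2, TBA isoflurane and water isoflurane. TBA CO2-O2 rats 1 and 2 and TBA isoflurane rat 2 are the 3 lowest rats for the probes shown of the 4 P450 genes and for Alb, Ttr and Serpina1. Other kept probes of Cyp2c7 and Cyp2c6v1, not shown, differed in this.

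Cyp2c11, the male-specific P450 of rat liver that is also present in kidney, had the same 3 lowest rats among TBA rats but not over all 12 rats. It had levels of -0.73, -0.22 and 1.66 in TBA CO2-O2 rats, against -0.42, 2.25 and 1.84 in water CO2-O2 rats. It had 1.90, -0.87 and 1.44 in TBA isoflurane rats, against -3.11, 0.92 and 3.48 in water isoflurane rats. Among the 6 TBA rats, TBA CO2-O2 rats 1 and 2 and TBA isoflurane rat 2 were again the 3 lowest. The lowest and the highest of all 12 were water isoflurane rats, water CO2-O2 rat 1 lay among the 3 low TBA rats, and the 12 rats spanned a 96.4-fold range. The TBA differences were -0.98 ± 1.51 (adjusted p = 0.808, 95% interval -4.35 to 2.38) and 0.39 ± 1.51 (adjusted p = 0.925, 95% interval -2.98 to 3.76). A change of 4-fold in either direction was therefore inside both intervals, and on slide 1 alone the CO2-O2 difference was 0.44, opposite in sign. Cyp2b15 and Cyp2a2 were the dimmer members not covered above. Cyp2b15 lay between -5.36 and -4.64 and Cyp2a2 between -5.68 and -3.93, with TBA differences from -0.20 to 0.20 under either gas; on slide 1 alone those under CO2-O2 were -0.33 for Cyp2b15 and -0.48 for Cyp2a2.

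The test of whether the TBA effect differed between gases called 0 of 21 members and 0% of all features, and 4 members, against 12.1% of all features, had an unadjusted p under 0.05 by limma: Cyp2b2, Cyp2c23, Cyp2j3 and Cyp2s1. Isoflurane was also compared with CO2-O2 within each treatment. In TBA rats 0 of 21 members and 0.00676% of all features were called, 3 members had an unadjusted p under 0.05 against 10.8% of all features, and 2 members did not overlap against 15.1% of all features. Those 2 were Cyp2c23 (0.16 ± 0.06, adjusted p = 0.358) and Cyp2a2 (0.89 ± 0.33, adjusted p = 0.37), Cyp2a2 being named after its values were seen. Slide and gas cannot be told apart here, and within the shared scan day, with 2 TBA CO2-O2 rats, the differences were 0.13 for Cyp2c23 and 0.74 for Cyp2a2. In water rats 0 of 21 members and 0.105% of all features were called, 4 members had an unadjusted p under 0.05 against 18.7% of all features, and 8 did not overlap against 29.2% of all features. Of these 8, isoflurane rats were higher for Cyp2b2, Cyp2d2 and Cyp2t1 and lower for Cyp2d1, Cyp2d5, Cyp2j3, Cyp2j4 and Cyp2s1. The median difference of members was 0.15 in TBA rats and 0.03 in water rats, against 0.01 and 0.01 over all features.

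Genes that serve or control these enzymes were taken from 6 lists, and the genes named from them were chosen after their values were seen. Over all features, limma called 0.149% for TBA under CO2-O2, 0.395% under isoflurane and 1.88% over both gases. Among 9 electron donors and membrane partners, all tested, Cyb5r1, a cytochrome b5 reductase, rose with TBA by 0.85 ± 0.11 under CO2-O2 (1.80-fold, adjusted p = 0.02) and by 0.71 ± 0.08 over both gases (adjusted p = 0.00579). Its levels were 6.12, 6.09 and 6.27 in TBA CO2-O2 rats, against 5.29, 5.40 and 5.25 in water CO2-O2 rats. They were 5.93, 6.17 and 6.19 in TBA isoflurane rats, against 5.74, 5.39 and 5.44 in water isoflurane rats, so that all 6 TBA rats lay above all 6 water rats. Under isoflurane alone Cyb5r1 was not called. Fdxr, the reductase of mitochondrial P450s, fell by 0.24 ± 0.05 over both gases (adjusted p = 0.0375), and the P450 reductase Por differed by 0.19 ± 0.13 (adjusted p = 0.558) under CO2-O2 and -0.27 ± 0.13 (adjusted p = 0.332) under isoflurane.

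Of 16 tested genes of CAR, PXR, their partners and other targets, 1 was called, over both gases and under neither gas alone. This was the organic anion exporter Abcc2, which rose by 0.49 ± 0.10 over both gases (1.40-fold, adjusted p = 0.0486). Abcc2 had levels of 1.88, 2.18 and 2.22 in TBA CO2-O2 rats, against 1.49, 1.65 and 1.57 in water CO2-O2 rats. It had 1.93, 2.41 and 2.14 in TBA isoflurane rats, against 1.82, 1.84 and 1.45 in water isoflurane rats, so that every TBA rat lay above every water rat. As for Cyb5r1, the share of all features separated in this way was not counted. The receptor genes themselves were not called: PXR (Nr1i2) differed by 0.05 ± 0.05 (adjusted p = 0.615) and CAR (Nr1i3) by -0.25 ± 0.21 (adjusted p = 0.551) over both gases. Nr1i3 was well above background in 2 of 3 rats of each TBA group and in 3 of 3 of each water group. The list's median over both gases was 0.08. Of 10 tested genes of growth hormone and sex-dependent regulation, Igf1 fell with TBA by 0.91 ± 0.13 under CO2-O2 (adjusted p = 0.0318) and by 0.52 ± 0.09 over both gases (adjusted p = 0.0292). Under isoflurane Igf1 differed by -0.13 ± 0.13 (adjusted p = 0.653), and the difference between these effects was not called (0.78 ± 0.18, adjusted p = 0.236). Stat5b, a transcription factor that growth hormone activates, was lower with TBA by 0.64 ± 0.10 under isoflurane (limma adjusted p = 0.0363). Treatment and slide cannot be told apart under isoflurane. Under CO2-O2 Stat5b differed by 0.20 ± 0.10 (adjusted p = 0.39), and the difference between these effects was not called (-0.84 ± 0.14, adjusted p = 0.169).

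In the 3 other lists, limma called 0 of 8 tested AhR pathway genes, 0 of 12 genes of haem supply and breakdown and 0 of 7 genes of epoxide hydrolysis and eicosanoid synthesis in any of the 6 comparisons. Their medians over both gases were 0.01, -0.06 and -0.15. The AhR target Nqo1 differed by -0.47 ± 0.16 over both gases (adjusted p = 0.161) and Ahr itself by -0.05 ± 0.17 (adjusted p = 0.912). Ahrr, of the same list, had levels of -3.50, -2.02 and -2.30 in TBA CO2-O2 rats, against -1.47, -1.18 and -1.77 in water CO2-O2 rats. It had -1.68, -2.25 and -1.62 in TBA isoflurane rats, against -1.05, -1.46 and -1.28 in water isoflurane rats. TBA and water rats did not overlap under either gas, as for 21.0% and 24.0% of all features, and Ahrr was not called.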

How the data were processed

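Renal cortex RNA (0.2 ug per rat, Cy3-labelled) was hybridised to one-colour Agilent arrays, 1 per rat. The scanner output the authors deposited is spot intensity, made with Agilent Feature Extraction 10.7, per the submitters' processing notes. Per the file headers (software 10.7.1.1), background was subtracted from this intensity and nothing was scaled between arrays. The deposited series table holds a ratio of that intensity to the array's 75th percentile (column medians 0.101 to 0.107), as read from its values and not stated by the authors; its columns matched other replicates of the same group, so scanner files were used.

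Log2 intensity minus the array's 75th percentile was analysed. RefSeq accessions without versions gave symbols from the GRCr8 table: 27460 of 61657 probes had 1 symbol, 0 several and 34197 none. Kept were 40216 probes that some group had well above background on each of its 3 arrays, and the brightest per symbol was used, giving 29603 features. Of the members' spots, 0 were flagged and 0 saturated. The fit over 12 arrays had a mean for each group (limma 3.58.1, R 4.3.3, with 8 residual and 1.89 prior degrees of freedom), with Benjamini-Hochberg adjustment over all features. The bound for a dim group takes, on each dim array, the probe's own signal or the lowest signal well above background there, whichever is higher. The labels do not say whether the rats came from separate cages or litters. The number of arrays limits the precision.

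Members described with every rat's value were those called, the 10 with the highest mean signal, the 4 highest and 4 lowest differences in each TBA comparison and a preset group (Cyp1a1, Cyp1a2, Cyp1b1, Cyp2b1, Cyp2b2, Cyp2c11, Cyp2c23, Cyp2e1, Cyp2j3, Cyp2j4, Cyp2r1, Cyp2u1, Cyp2s1, Cyp3a2, Cyp3a9, Cyp3a18 and Cyp3a62); members not well above background in any whole group were only named or given by range. Members, lists and tests were chosen with earlier results of these data known. Alternatives were normexp (offset 50), quantile scaling, the series table, other probe filters, probe averages per gene, a random slide block (statmod 1.5.0), scan day, 1 slide or day alone, replicate number, a fit on the compared arrays alone, a robust spread with a trend, at least 2-fold, and each array left out. The fit was tested on simulated data.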

Additional observations from a re-analysis of the deposited data

How the results depend on the processing

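No member was called in any of the 6 comparisons. With a trend and robust spread 1 member was called under isoflurane (Cyp2c23, adjusted p = 0.0241), 1 over both gases (Cyp2c23, 0.0221) and 1 for isoflurane against CO2-O2 in water rats (Cyp2j3, 0.0315). With normexp background correction 1 was called over both gases (Cyp2b2, 0.0481) and 2 for isoflurane against CO2-O2 in water rats (Cyp2j3, 0.0139, and Cyp2s1, 0.032). Cyp2j3 was the 1 call in that comparison with quantile scaling (0.0462) and with only probes well above background on all 12 arrays (0.0472). Leaving out each rat in turn gave 0 to 1 members over both gases; the call was Cyp2c13 without TBA CO2-O2 rat 3 (-2.44, adjusted p = 0.0334), a gene that passed the filter only through water rats. Over all features, counts over both gases were 558 in the reported fit, 993 with normexp and 1091 with a trend; in water rats they were 31, 850 and 283, with 92 by quantile scaling. The causes were not tested. With scan day as a fixed term, Cyp2b2 for isoflurane against CO2-O2 in water rats changed sign to -0.0101 (adjusted p = 0.992). Of 592 values of 26 single-gene differences, 582 kept their direction and side of the threshold, 9 became called, 0 were lost and 1 turned. With the replicate block 0 members were called; same-numbered rats correlated at -0.13 to 0.13, with 3 of 18 pairs over 0.1, so numbers were not taken as pairs. Signal near background limits Cyp2c7, Cyp2c6v1, Cyp2c13, Cyp3a2 and the 17 untested members.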
